A study of Mus musculus with 6 samples.

Results

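The proteasome is the barrel-shaped protease that degrades ubiquitin-tagged proteins. Its genes were taken as those whose platform symbol is Psma, Psmb, Psmc, Psmd or Psme followed by a number only, with 1 probe set kept per gene, that of highest average level over the 6 arrays. This gave 42 of the 18193 genes measured, 4 of them immunoproteasome genes (Psmb8, Psmb9, Psmb10 and Psme1) and 38 others. A 5th immunoproteasome gene, Psme2, is represented only by a probe set that is also annotated to Psme2b, so no value is given for it. The cells were bone marrow cells of healthy C57BL/6 mice. The mimic group was transfected with a mimic oligonucleotide of miR-142-3p, and the control group with a control oligonucleotide, both at 100 nM. GM-CSF and IL-6 were added to all cells 5 h later for 4 days, a culture that yields myeloid-derived suppressor cells (MDSCs), and RNA from 3 samples of each group was hybridised to Affymetrix MOE430 2.0 arrays. The mimic was not restricted to a cell type, and the labels do not say whether the 3 samples of a group came from separate animals or cultures, so the p-values reflect the scatter among these 6 samples, and that scatter may be technical.

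The mature microRNA that the mimic carries is shown for identification, in the RefSeq sequence of mmu-miR-142a-3p (GRCm38.p6, chr11:87756903-87756925, plus strand), with its seed, bases 2 to 8, in capitals.
miR-142a-3p: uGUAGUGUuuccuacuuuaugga

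The catalytic core of the proteasome, the 20S particle, stacks rings of alpha subunits, which gate the entry pore, around rings of beta subunits, which hold the active sites. A 19S cap of ATPases and non-ATPase subunits binds ubiquitin chains, unfolds the substrate and feeds it in. In cells exposed to interferon, and in many resting immune cells, the catalytic beta subunits encoded by Psmb5, Psmb6 and Psmb7 are replaced in newly built particles by those of Psmb8, Psmb9 and Psmb10, and the cap can be replaced by the PA28 activator, made of the Psme1 and Psme2 products. This form, the immunoproteasome, is known for making peptides that fit MHC class I.

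Levels are the deposited log2 values, and changes are log2 fold changes, mimic minus control, ± SE. The arrays correlated at r = 0.982 to 0.996 across probe sets, and their medians lay between 0.84 and 0.92. Over all genes 503 passed an adjusted p of 0.05 (limma, Benjamini-Hochberg over 18193 genes), with 213 higher, or 1.17%, and 290 lower, or 1.59%, together 2.76%. A further round of quantile normalisation made this 322 higher and 290 lower. The median change over all genes was 0.01. The 3 mimic arrays did not overlap the 3 control arrays in 22.2% of all genes (11.0% higher, 11.1% lower) and in 41.3% of the 4093 genes with a mean log2 value of at least 5. Transcripts of granulocytic cells were abundant, as S100a8 averaged 11.96 ± 0.04 with the mimic and 11.85 ± 0.02 in control (SD, n = 3 each), while Nos2, often used as an MDSC marker, lay below 1 on all 6 arrays. Of the 6 MDSC markers measured 1 rose, Cd274, the gene of the checkpoint ligand PD-L1 (change 0.78 ± 0.10, adjusted p = 0.0136), and 1 fell, Itgam, the gene of CD11b (change -1.19 ± 0.17, adjusted p = 0.017). Arg1, of arginase, had a change of 1.34 ± 0.42 that did not pass (adjusted p = 0.148).

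All 4 immunoproteasome genes had a higher mean with the mimic, by 1.16 to 1.46-fold. Of the 4 immunoproteasome genes 2 rose, Psmb10 and Psmb9, and 0 fell, where 1.17% of all genes rose. Many of all genes are dim, and of the 4093 with a mean log2 value of at least 5, which all 4 exceed, 6.16% passed in either direction. Of the 38 others 0 rose and 0 fell by limma. At an unadjusted p under 0.05, 6 of these 38 were higher and 2 lower, a share of 8 in 38 beside 17.0% of all genes. It was 1351 of the 4093 genes with a mean log2 value of at least 5 when only those were fitted. The median change was 0.36 over the 4 immunoproteasome genes and 0.03 over the 38 others. No test was made over the list. The 95% interval of the change lay within 0.5 of 0 on the log2 scale for 32 of the 38 others.

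Psmb10 encodes the immunoproteasome subunit with trypsin-like activity, also called MECL-1. Its level was 7.63, 7.67 and 7.72 in mimic arrays 1, 2 and 3, against 7.18, 7.03 and 7.16 in control arrays 1, 2 and 3. The groups lay apart by more than the whole range of either, and Psmb10 was 1.46-fold higher with the mimic (log2 change of 0.55 ± 0.09, limma adjusted p = 0.0246). Psmb9 encodes the subunit also called LMP2, which takes the place of the caspase-like subunit. Its level was 6.99, 7.13 and 7.13 in mimic arrays 1, 2 and 3, against 6.59, 6.64 and 6.61 in control arrays 1, 2 and 3. All mimic arrays lay above all control arrays, and Psmb9 was 1.39-fold higher (log2 change of 0.47 ± 0.09, limma adjusted p = 0.0348). Each gene has a single probe set with 1 symbol. Over the fits that left out 1 array in turn, the change of Psmb10 stayed between 0.50 and 0.58 and that of Psmb9 between 0.45 and 0.52, but the calls did not last. Psmb10 passed only without control array 1 (adjusted p = 0.0373), with an adjusted p of 0.0561 to 0.122 in the other 5 fits, and Psmb9 passed in none of the 6 (adjusted p = 0.067 to 0.129).

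Psmb8 encodes the chymotrypsin-like subunit LMP7. Its level was 8.05, 7.93 and 8.27 in mimic arrays 1, 2 and 3, against 8.01, 7.73 and 7.78 in control arrays 1, 2 and 3. The groups overlapped, since control array 1 lay above mimic array 2, and the change did not pass (log2 change of 0.24 ± 0.12, 95% interval -0.04 to 0.53, limma adjusted p = 0.381). It was 0.15 without mimic array 3. A second, dimmer probe set of Psmb8, of the type that can cross-hybridise, averaged 3.72 ± 0.06 with the mimic and 3.23 ± 0.01 in control (SD, n = 3 each). Its groups did not overlap, with a log2 change of 0.49 ± 0.08 (limma adjusted p = 0.0511 over all probe sets). Psme1 encodes the alpha subunit of the PA28 activator. Its level was 8.63, 8.75 and 8.76 in mimic arrays 1, 2 and 3, against 8.59, 8.45 and 8.47 in control arrays 1, 2 and 3. All mimic arrays lay above all control arrays, but mimic array 1 only just above control array 1, and the change of 0.21 ± 0.09 did not pass (limma adjusted p = 0.301).

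**Figure D1:**
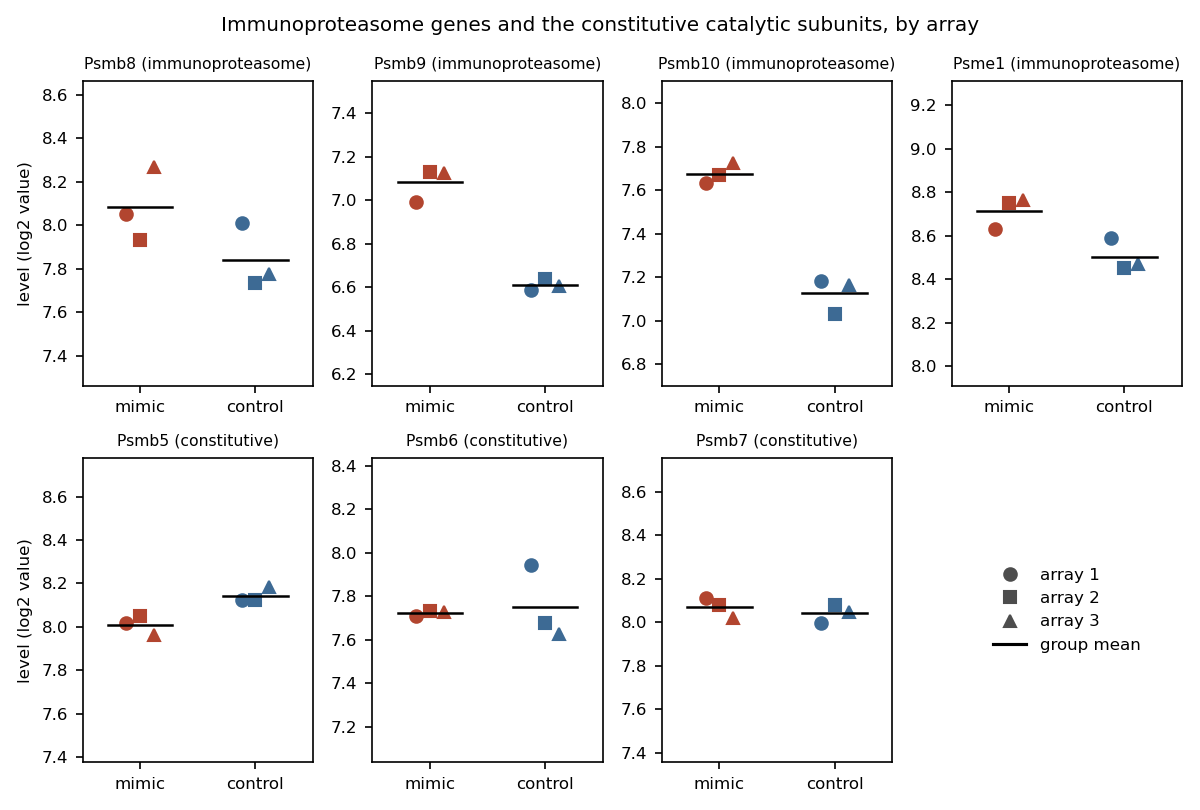
Levels (log2 value, y axis) of 4 immunoproteasome genes and of 3 constitutive catalytic subunit genes in each array, mimic left and control right, with the group mean as a line; all panels span the same log2 range. Psmb9 and Psmb10 are clearly apart between the groups, with means of 7.08 and 7.67 with the mimic against 6.61 and 7.12 in control, while Psmb8 overlaps.

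The constitutive catalytic subunits, which the immunoproteasome subunits replace, gave no such rise. Psmb5, the chymotrypsin-like subunit, stood at 8.02, 8.05 and 7.96 in mimic arrays 1, 2 and 3, against 8.12, 8.12 and 8.18 in control arrays 1, 2 and 3. Its groups did not overlap and the mimic arrays were the lower ones, but the change was small and did not pass (log2 change of -0.13 ± 0.08, limma adjusted p = 0.497). Psmb6, the caspase-like subunit, stood at 7.71, 7.73 and 7.73 in mimic arrays 1, 2 and 3, against 7.94, 7.68 and 7.63 in control arrays 1, 2 and 3. The mimic arrays lay inside the range of the controls, with a log2 change of -0.03 ± 0.11 (adjusted p = 0.932). Psmb7, the trypsin-like subunit, stood at 8.11, 8.08 and 8.02 in mimic arrays 1, 2 and 3, against 7.99, 8.08 and 8.05 in control arrays 1, 2 and 3. Its groups overlapped as well (log2 change of 0.03 ± 0.09, adjusted p = 0.912). The 95% intervals reached at most 0.06, 0.22 and 0.23 upward for Psmb5, Psmb6 and Psmb7.

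Each inducible subunit was then set against the one it replaces, as the change of the first minus the change of the second within the same array, relative to the control mean. For Psmb10 minus Psmb7 this difference was 0.44, 0.51 and 0.62 in mimic arrays 1, 2 and 3, against 0.10, -0.13 and 0.03 in control arrays 1, 2 and 3. For Psmb9 minus Psmb6 it was 0.43, 0.53 and 0.54 with the mimic, against -0.22, 0.10 and 0.12 in control. In both pairs every mimic array lay above every control array, and the mean differences were 0.52 and 0.50, each with the smallest p the design allows (exact two-sided permutation test, p = 0.1, adjusted p = 0.15 over 3 pairs). For Psmb8 minus Psmb5 it was 0.34, 0.18 and 0.61 with the mimic, against 0.19, -0.09 and -0.10 in control. These groups overlapped slightly, with a mean difference of 0.38 (exact permutation test, p = 0.2, adjusted p = 0.2). With 3 arrays against 3 none of these tests could reach 0.05.

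Promoter sequence is shown for the 4 measured immunoproteasome genes, whose means were all higher with the mimic. RefSeq windows (GRCm38.p6), from 250 bases before to 50 after the annotated start, were found for 35 of the 42 genes. They were searched on both strands for 5 motifs: the interferon-stimulated response element (ISRE, GAAA, any 2 bases, GAAA), the STAT site GAS (TTCNNNGAA), the antioxidant response element (ARE, TGACNNNGC), the CCAAT box (CCAAT) and the GC box (GGGCGG). Matches are in capitals, and no 2 of them overlap. The Psmb9 window, chr17:34187281-34187580 on the minus strand, is shown because it is also the start of the peptide transporter gene Tap1 on the opposite strand: the windows of both genes share 275 bases. The Psmb10 window is chr8:105938343-105938642 on the minus strand. The Psmb8 window is chr17:34197945-34198244 and the Psme1 window chr14:55578244-55578543, both on the plus strand.
Psmb9 promoter: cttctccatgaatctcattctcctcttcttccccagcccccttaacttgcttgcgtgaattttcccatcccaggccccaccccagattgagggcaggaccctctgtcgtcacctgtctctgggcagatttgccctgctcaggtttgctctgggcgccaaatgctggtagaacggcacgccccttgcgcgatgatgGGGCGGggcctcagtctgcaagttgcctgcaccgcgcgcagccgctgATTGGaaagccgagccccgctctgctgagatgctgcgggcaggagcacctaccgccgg
Psmb10 promoter: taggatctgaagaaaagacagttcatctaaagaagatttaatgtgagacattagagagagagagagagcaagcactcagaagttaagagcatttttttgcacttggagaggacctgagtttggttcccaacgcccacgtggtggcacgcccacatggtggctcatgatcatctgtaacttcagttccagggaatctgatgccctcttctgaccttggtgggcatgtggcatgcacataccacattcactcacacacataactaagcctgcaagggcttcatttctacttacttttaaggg
Psmb8 promoter: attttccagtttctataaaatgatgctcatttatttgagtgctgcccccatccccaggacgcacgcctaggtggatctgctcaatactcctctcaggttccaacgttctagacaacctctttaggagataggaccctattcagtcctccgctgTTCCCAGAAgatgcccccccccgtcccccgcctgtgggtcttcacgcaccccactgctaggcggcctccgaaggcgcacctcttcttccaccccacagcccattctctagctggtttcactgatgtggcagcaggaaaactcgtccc
Psme1 promoter: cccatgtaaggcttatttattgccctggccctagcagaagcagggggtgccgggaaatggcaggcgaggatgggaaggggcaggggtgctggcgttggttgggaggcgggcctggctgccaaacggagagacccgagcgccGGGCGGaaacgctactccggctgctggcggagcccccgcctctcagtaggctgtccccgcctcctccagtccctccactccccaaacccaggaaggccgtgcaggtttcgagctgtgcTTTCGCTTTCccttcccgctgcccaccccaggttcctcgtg

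Psmb9 held a GC box and a CCAAT box, Psmb8 a GAS match, Psme1 an ISRE match and a GC box, and Psmb10 none of the 5. The ISRE letters occur in 3.44% of all 32851 windows, in 1 of the 4 immunoproteasome windows and in 3 of the 33 windows of the other proteasome genes (Psmb3, Psmd4 and Psmd9). The GAS letters occur in 8.3% of all windows, in 1 of the 4 and in 1 of the 33 (Psmd2). The ARE letters, the type of site through which the factor Nfe2l1 is known to drive proteasome genes, occur in 12.4% of all windows, in 0 of the 4 and in 6 of the 33, among them those of Psmb5 and Psmb6. The GC box occurs in 35.7% of all windows and in 57.6% of the 33, and the CCAAT box in 37.4% and 39.4%. These are matches of letters within the windows only.

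The alpha ring, whose 7 genes form the gate of the core, had a higher mean with the mimic for 6 of them and a median change of 0.20, but 0 of 7 passed (limma; 2 of 7 at an unadjusted p under 0.05, both higher). The groups did not overlap in 5 of the 7, beside 22.2% of all genes and 41.3% of those with a mean log2 value of at least 5. At an unadjusted p under 0.05 the share over all genes was 17.0%. Psma5 had the highest change, at 8.25, 8.34 and 8.08 in mimic arrays 1, 2 and 3, against 7.29, 7.80 and 7.94 in control arrays 1, 2 and 3. Control array 1 was the lowest of all, and the change of 0.54 ± 0.17 did not pass (limma adjusted p = 0.161) and was 0.35 without that array. It was close to that of Psmb10, with a spread over controls of 0.35 (SD, n = 3) against 0.08 for Psmb10. The second bright probe set of Psma5 had a smaller change, 0.27 ± 0.09 (adjusted p = 0.246 over all probe sets). Psma4 had the lowest change, -0.03 ± 0.10. Psma2 stood at 9.01, 8.95 and 8.94 in mimic arrays 1, 2 and 3, against 8.61, 8.71 and 8.73 in control arrays 1, 2 and 3, apart by more than the range of either group. Its change of 0.28 ± 0.09 missed the threshold over all genes (limma adjusted p = 0.147) and passed when only genes with a mean log2 value of at least 5 were tested (limma adjusted p = 0.0419).

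The constitutive beta ring, 7 genes with Psmb5, Psmb6 and Psmb7 among them, had a median change of -0.02, with 3 means higher and 4 lower. By limma 0 of 7 passed, and 0 of 7 did at an unadjusted p under 0.05. For the probe sets used, all 7 intervals lay within 0.5 of 0. The highest change of these was that of Psmb3, a non-catalytic subunit, at 0.18 ± 0.13 (0.30 without control array 1 and 0.10 without control array 2). The lowest was that of Psmb5. The second probe set of Psmb3, also bright, had a change of -0.04 ± 0.13 (limma adjusted p = 0.935 over all probe sets). For Psmb4 the probe set used had a change of 0.10 ± 0.09. Its other bright probe set, of the type that can cross-hybridise, had one of 0.41 ± 0.13 (limma adjusted p = 0.212 over all probe sets). Psma8 and Psmb11, which make proteasomes of the testis and of the thymic cortex, lay below 1 on all 6 arrays, Psma8 at 0.35 ± 0.01 with the mimic and 0.37 ± 0.24 in control and Psmb11 at 0.34 ± 0.12 with the mimic and 0.25 ± 0.36 in control (SD, n = 3 each).

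In the 19S cap the ATPases and the non-ATPase subunits differed in their medians. All 6 ATPase genes had higher means with the mimic, with a median change of 0.14, and 0 of 6 passed by limma (3 of 6 at an unadjusted p under 0.05, all higher). That p was reached by 17.0% of all genes, and by 1351 of the 4093 genes with a mean log2 value of at least 5 when only those were fitted. Psmc4 had the highest change, at 7.82, 7.68 and 7.48 in mimic arrays 1, 2 and 3, against 6.95, 7.40 and 7.24 in control arrays 1, 2 and 3. The lowest mimic array lay just above the highest control array, and the change of 0.46 ± 0.14 did not pass (adjusted p = 0.152). Its second probe set, also bright, went the other way, at -0.19 ± 0.16 (adjusted p = 0.679 over all probe sets). Psmc2, 1 of the 3, was read from a probe set of the type that can cross-hybridise, with a change of 0.24 ± 0.09. Its other bright probe set had a change of 0.09 ± 0.08 (adjusted p = 0.74 over all probe sets). Psmc3 had the lowest change, 0.01 ± 0.09. Of the 11 non-ATPase genes 4 had higher and 7 lower means, with a median of -0.09, and 0 of 11 passed (3 of 11 at an unadjusted p under 0.05, 1 higher and 2 lower).

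Psmd1, a scaffold subunit of the cap base, had the lowest change of the 42 genes. It stood at 6.42, 6.87 and 6.69 in mimic arrays 1, 2 and 3, against 6.82, 7.27 and 7.37 in control arrays 1, 2 and 3. Control array 1 lay within the mimic range, and the change of -0.49 ± 0.17 did not pass (limma adjusted p = 0.2). With array weights, the only alternative that called any of the 38 others lower, it passed at -0.67 ± 0.14 (adjusted p = 0.0351). Psmd14, the deubiquitinase of the cap lid, had the highest change among the non-ATPases, 0.20 ± 0.09 (adjusted p = 0.289), and its groups did not overlap. Psmd8, another lid subunit, went the opposite way, at 8.23, 8.05 and 8.26 in mimic arrays 1, 2 and 3, against 8.65, 8.39 and 8.36 in control arrays 1, 2 and 3. These groups were also narrowly apart, with a change of -0.29 ± 0.12 (adjusted p = 0.258); Psmd8 was chosen after its values were seen.

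Of the assembly chaperones of the cap, Psmd5, Psmd9 and Psmd10, 0 of 3 passed by limma, and 0 of 3 did at an unadjusted p under 0.05. Psmd10, also known as the oncoprotein gankyrin, had the highest change, 0.18 ± 0.13 (0.31 without mimic array 2 and 0.10 without mimic array 3), and Psmd5 the lowest, -0.08 ± 0.09. The activators outside the immunoproteasome were Psme3, of the nuclear PA28 gamma, and Psme4, of the activator PA200. Psme3 had a change of -0.10 ± 0.09 and Psme4 one of 0.23 ± 0.12, and neither passed (adjusted p = 0.659 and 0.396). Without control array 1 the change of Psme4 was 0.11. A second probe set of Psme4, of similar brightness, had a change of 0.41 ± 0.12 and a dimmer one of -0.17 ± 0.15 (adjusted p = 0.189 and 0.705 over all probe sets).

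**Figure D2:**
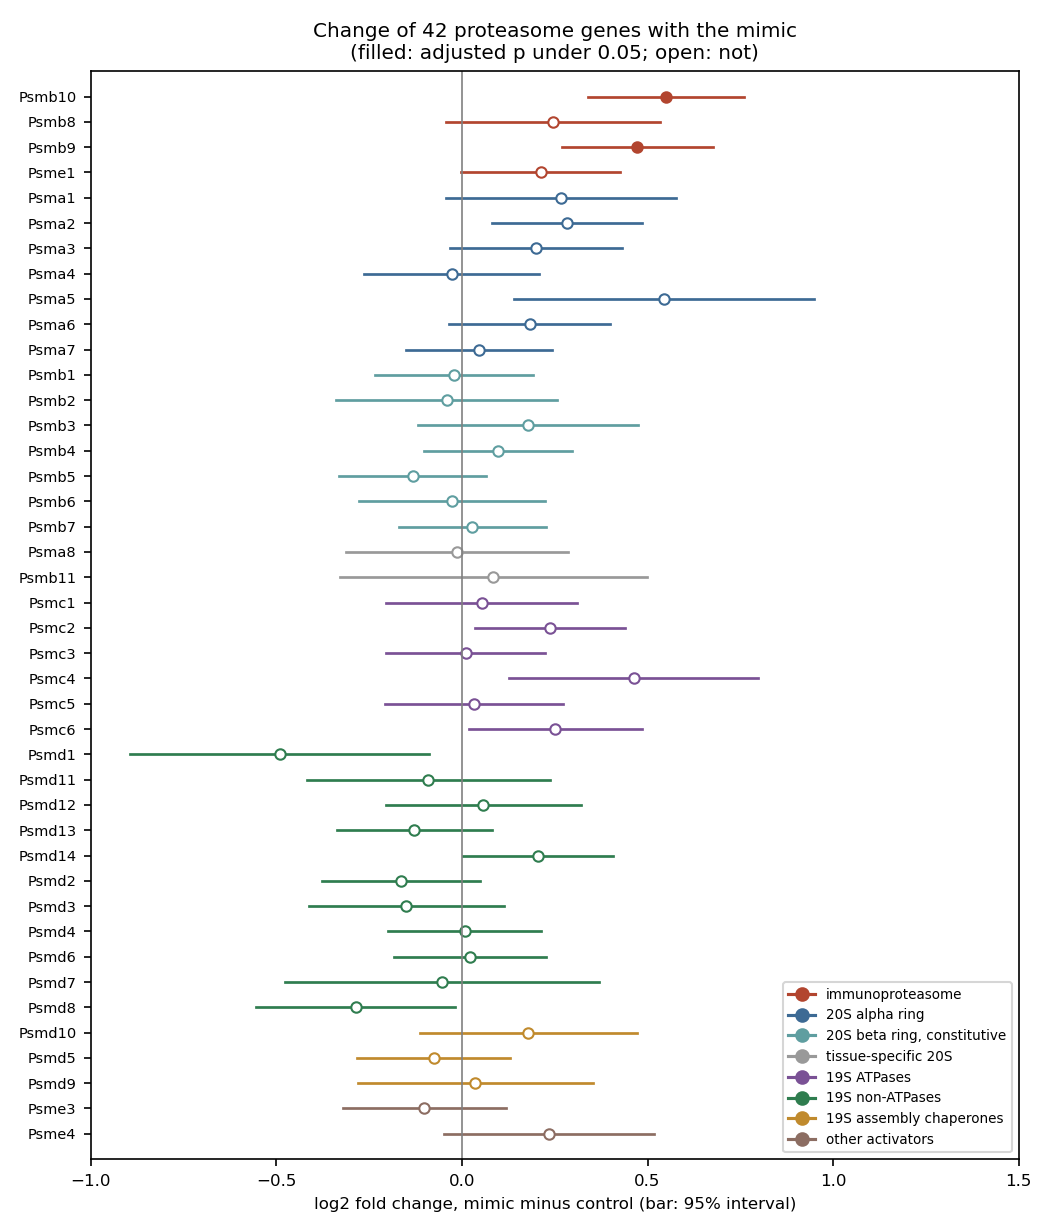
Log2 fold change, mimic minus control (x axis), of the 42 proteasome genes by role, with 95% intervals as bars; filled points have an adjusted p under 0.05. The filled points are Psmb10 (0.55) and Psmb9 (0.47), and the intervals of Psmd7, Psmb11, Psma5 and Psmd1 are the widest of the 42.

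Control array 1 stood apart from the other controls in these genes. Over the 40 expressed genes, those other than Psma8 and Psmb11, it was the lowest control in 24 and the highest in 14. The mimic arrays were each the lowest or highest of their group in 26 to 28 of the 40. Without control array 1 the median change of the alpha ring was 0.14, that of the ATPases 0.13, that of the constitutive beta ring 0.06 and that of the immunoproteasome genes 0.40. That of the non-ATPases came near 0, at -0.01, without control array 3. Non-overlap of the groups was common among proteasome genes, at 15 of the 38 others (11 higher, 4 lower) or 39.5%, near the 41.3% of all genes with a mean log2 value of at least 5. Among the 4 immunoproteasome genes it held for 3, all higher.

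**Figure D3:**
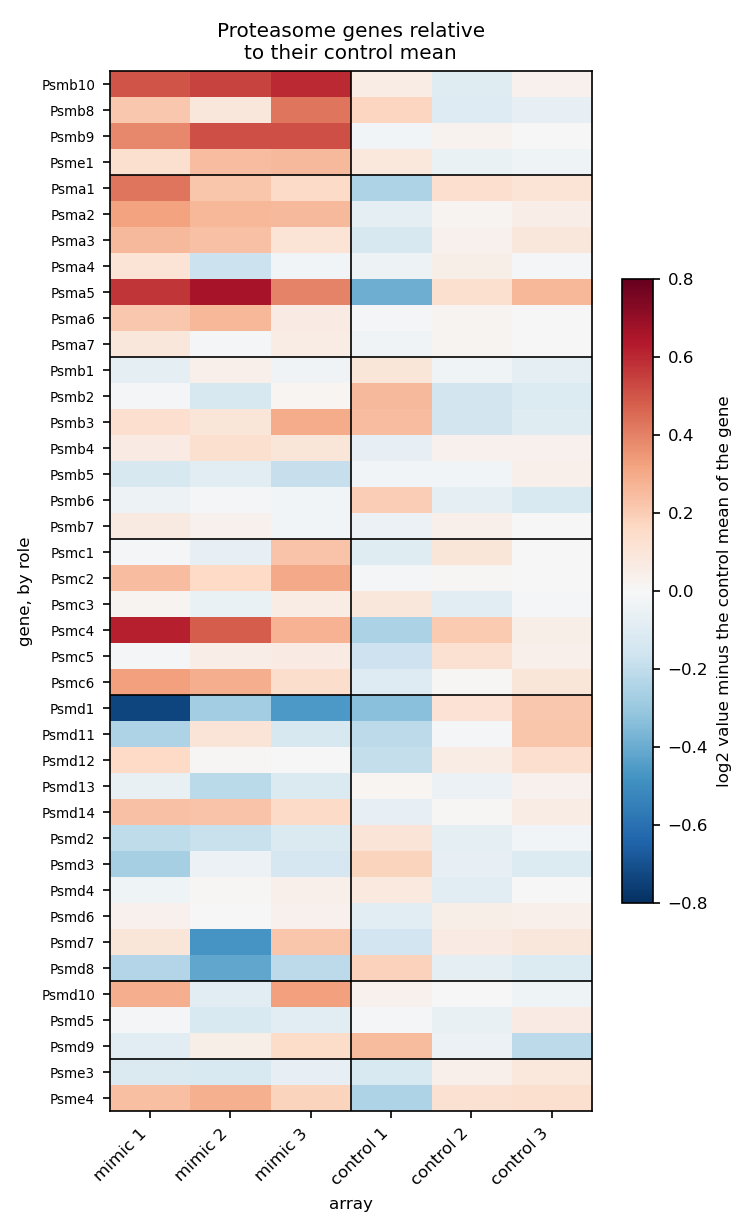
Each of 40 expressed proteasome genes (rows, by role) in each array (columns), as the log2 value minus the control mean of that gene; red is higher, blue lower. Psmb9 and Psmb10 are red on all 3 mimic arrays, and control array 1 is the lowest control for 24 of the 40 genes.

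Of the 42 genes 22 have more than 1 probe set. Among the 46 probe sets not used, 15 had a mean log2 value of at least 5, and 11 of these 15 had a change of the same sign as the one used, while 4 did not (of Psma7, Psmb3, Psmc4 and Psmd4). When all probe sets were tested together, Psmb10 passed (limma adjusted p = 0.0459) and Psmb9 did not (adjusted p = 0.0619).

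Genes that build or regulate the proteasome did not pass. Of the 5 factors that assemble the 20S core, Pomp and Psmg1 to Psmg4, 0 passed by limma and 0 did at an unadjusted p under 0.05, with a median change of -0.09, and the change of Psmg3 was -0.21 ± 0.15 (adjusted p = 0.555), but -0.04 ± 0.08 without control array 1. Of 15 measured associated or regulatory genes 0 passed (3 at an unadjusted p under 0.05, 2 higher and 1 lower). That p was reached by 17.0% of all genes. The largest change was that of Nfe2l1, the transcription factor that raises proteasome genes when the protease is inhibited, at 4.40 ± 0.14 with the mimic and 4.75 ± 0.12 in control (SD, n = 3 each), a log2 change of -0.35 ± 0.11 (adjusted p = 0.157). From the list of ubiquitin genes and activating enzymes only Uba6, which loads ubiquitin and FAT10, was measured, and it had a change of -0.11 ± 0.26 (adjusted p = 0.888).

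The partners of the immunoproteasome in antigen presentation included 1 gene that rose. Of 11 genes of class I peptide transport and loading 1 rose, 0 fell and 8 had a higher mean, with a median change of 0.24. The 3 with a lower mean were Pdia3, Tap2 and Canx, with changes of -0.50 ± 0.13, -0.27 ± 0.14 and -0.01 ± 0.12. None of these passed (limma adjusted p = 0.0876, 0.393 and 0.985), but all mimic arrays lay below all control arrays for Pdia3. The gene that rose was Tap1, whose product carries peptides into the endoplasmic reticulum and whose start lies 226 bases from that of Psmb9. Its level was 7.54, 7.53 and 7.66 in mimic arrays 1, 2 and 3, against 6.98, 7.06 and 7.13 in control arrays 1, 2 and 3. The groups were apart, with a log2 change of 0.52 ± 0.09 (limma adjusted p = 0.0306), which passed in 0 of the 6 fits with an array left out (adjusted p = 0.0574 to 0.134). With the probe sets of Tap1 averaged its change was 0.18 ± 0.10 and did not pass (adjusted p = 0.436). Of 5 measured transcriptional regulators of the immunosubunit genes 2 rose and 0 fell. Irf1, an interferon-induced factor required for full expression of these genes, stood at 6.23, 6.40 and 6.54 in mimic arrays 1, 2 and 3, against 5.55, 5.60 and 5.67 in control arrays 1, 2 and 3. It was 0.78 ± 0.11 higher on the log2 scale (adjusted p = 0.0144). Nlrc5, the transactivator of class I genes, stood at 6.26, 6.29 and 6.22 in mimic arrays 1, 2 and 3, against 5.20, 5.50 and 5.52 in control arrays 1, 2 and 3. Its change was 0.85 ± 0.11 (adjusted p = 0.0136), so both regulators were well apart between the groups. Without mimic array 1, 2 or 3, or without control array 2, neither passed.

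Genes of the type I interferon response moved in the same arrays. Of 20 measured genes 15 rose and 0 fell, with a median change of 1.08, and the sum of their log2 levels was 158.4 to 159.3 in mimic arrays, against 123.4 to 141.3 in control arrays. The changes of Cxcl10, Ifit2 and Rsad2 were 2.34 ± 0.41, 2.33 ± 0.42 and 2.33 ± 0.38 (adjusted p = 0.0292, 0.0306 and 0.0229 by limma). These exceed the change of any immunoproteasome gene. None of these 3 genes passed without mimic array 1, 2 or 3 or without control array 2 (adjusted p = 0.0989 to 0.161), and Cxcl10 and Ifit2 did not pass with all probe sets tested together (adjusted p = 0.0594 and 0.062). The 15 genes that rose became 0 without mimic array 1, mimic array 3 or control array 2 and 1 without mimic array 2, with 18 or 19 of 20 higher at an unadjusted p under 0.05, and 6 with all probe sets tested together. With its probe sets averaged Rsad2 had a change of 1.67 ± 0.55 (adjusted p = 0.176). In the control arrays the order of the medians differed: control array 1 had the lowest median of the interferon list, -0.38 against 0.11 and 0.31 in control arrays 2 and 3, but the highest of the immunoproteasome genes, 0.07 against -0.07 and -0.02. This did not hold for each gene. For Psmb9 control array 1 was the lowest control, at 6.59 against 6.64 and 6.61. For Psmb10 it was the highest, at 7.18 against 7.03 and 7.16. The part of the interferon response in the change of Psmb9 and Psmb10 was not tested.

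**Figure D4:**
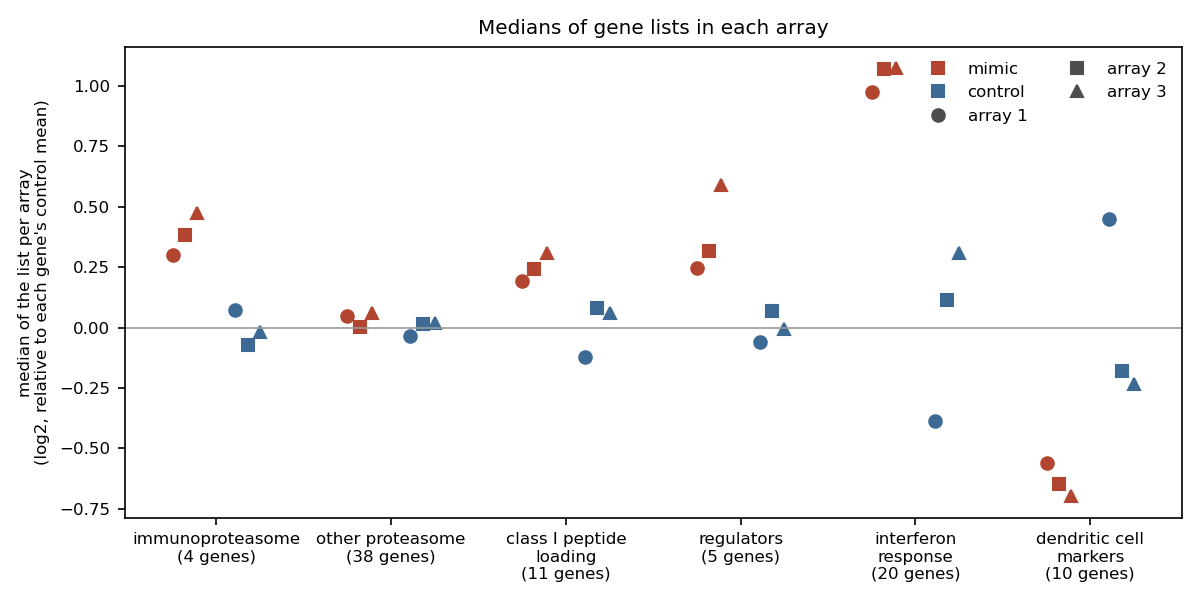
Median of each gene list in each array (y axis, log2, relative to the control mean of each gene), mimic arrays left of control arrays within a list. The immunoproteasome genes reach 0.30 to 0.47 on mimic arrays, the other 38 proteasome genes 0.004 to 0.06, and the interferon list 0.97 to 1.07.

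Marker lists of other blood cells held between 0 and 4 genes that passed, where 1.17% of all genes rose and 1.59% fell. Of 10 measured dendritic cell markers 4 fell (Ccl17, Ccl22, Itgax and Ccr7) and 0 rose, with a sum of log2 levels of 21.8 to 22.7 in mimic arrays, against 33.1 to 41.8 in control arrays, and with Xcr1 below 1 on all arrays. Of 4 B cell markers 1 fell, Ms4a1, and 0 rose (sum 13.2 to 13.9 in mimic arrays, against 14.6 to 15.8 in control arrays). Of 8 T and NK cell markers 1 fell, Thy1 (change -2.36 ± 0.22, adjusted p = 0.00673), and 0 rose, while 5 had a higher mean and the median change was 0.06 (sum 16.8 to 17.3 in mimic arrays, against 17.5 to 18.1 in control arrays), with Ncr1 below 1 on all arrays. Thy1 alone set the direction of this sum, which without it was 12.4 to 12.8 in mimic arrays, against 10.1 to 11.7 in control arrays. By far the largest change of those 7 was that of Nkg7, a cytotoxic granule gene. It averaged 4.92 ± 0.14 with the mimic and 3.29 ± 0.79 in control (SD, n = 3 each) and did not pass (change 1.63 ± 0.34, adjusted p = 0.0532). The rest of the 7 had changes from -0.22 (Cd3g) to 0.15 (Cd3d), and none passed. Of 5 monocyte and macrophage markers 2 fell, Csf1r and Ccr2, and 0 rose (sum 33.1 to 33.8 in mimic arrays, against 34.4 to 35.0 in control arrays). Adgre1 had a change of -0.38 ± 0.11. Mertk and Cd68 had higher means, with changes of 0.43 ± 0.28 and 0.04 ± 0.10. None of these others passed. Of 7 markers of neutrophils and their precursors 2 rose, Elane and Ctsg, and 0 fell (sum 75.6 to 75.9 in mimic arrays, against 69.7 to 73.5 in control arrays). Elane and Ctsg had changes of 0.98 and 1.08, and Mpo one of 0.97 that did not pass (limma adjusted p = 0.0678). S100a8, S100a9, Camp and Ltf had smaller changes, of 0.12, 0.04, 0.33 and 0.24, and none of them passed. Of 3 erythroid markers 0 passed by limma (sum 4.24 to 4.55 in mimic arrays, against 3.16 to 4.39 in control arrays). The 1 that was higher at an unadjusted p under 0.05 was Hba-a1, which lay below 1 on all arrays. That p was reached by 17.0% of all genes. In these bulk cultures fewer cells of a type and less RNA per cell cannot be told apart, and the part of the cell mixture in the changes of the proteasome genes was not tested.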

How the data were processed

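The authors deposited 1 table of log2 values, 1 per probe set and array. The submitters' processing notes list RMA and affy without a version or an order. The log base was taken from the values, and their centring and floor are not stated; all 6 array medians lie below 1. They were used as deposited. Of 45101 probe sets, 34945 have 1 symbol in the platform annotation, and symbols were updated by gene ID to RefSeq (34741 matched). The rest, with no symbol or more than 1, entered no test by gene.

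Mimic and control arrays were fitted in limma 3.58.1, under R 4.3.3, by lmFit with moderation by eBayes (two-sided, 6 arrays, no covariate), adjusted by Benjamini-Hochberg over 18193 genes. Data of 18193 genes were simulated for this comparison with independent normal noise and no array effect. In each of 10 draws 200 genes with a mean log2 value of at least 3 were changed. Recovery was 23.7% for changes of 0.5, 75.1% for 1 and 96.2% for 2 on the log2 scale, with 4.01% false calls. Changes of dimmer genes and arrays that stand apart were not simulated. Paired subunits were compared by exact permutation (scipy 1.17.1). The members, gene lists and tests were chosen with earlier results of these data known. Named genes are the immunoproteasome and constitutive catalytic genes, any other proteasome gene that passed, the highest and lowest change of each role, and up to 3 genes of each pathway list. The number of arrays limits the precision. Alternatives left out arrays singly, used a replicate block, dropped dim genes, took other probe sets, or used other variance models, array weights or normalisations.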

Additional observations from a re-analysis of the deposited data

How the results depend on the processing

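The count of 503 genes over the whole table became 0 to 413 with 1 array left out, 264 with all probe sets tested together and 1047 with array weights. Without mimic array 1, mimic array 3 or control array 2 it was 0 by limma (2343, 2746 and 2564 genes at an unadjusted p under 0.05), and without mimic array 2 it was 65. The 2 immunoproteasome genes that rose became 0 or 1 with 1 array left out (1 without control array 1, 0 otherwise, with 2 to 4 at an unadjusted p under 0.05) and 1 with all probe sets tested together. The 0 other proteasome genes that rose became 1 with genes of a mean log2 value of at least 5, and the 0 that fell became 1 with array weights. Titles number the arrays 1 to 3 in both groups. Deviations from the group mean correlated at r = -0.13, 0.34 and -0.30 between same-numbered arrays, and at -0.39 to 0.40 between others. With 3 arrays per group these values cannot settle whether same-numbered arrays are pairs. The main fit did not take them as pairs. With the replicate number as a block 314 genes passed, none of them an immunoproteasome gene (0 of 4, with 2 at an unadjusted p under 0.05) or a class I loading gene (0 of 11).

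The 1 class I loading gene that rose became 0 with any single array left out or with all probe sets tested together, 2 when the probe sets of each gene were averaged and 3 with a trended and robust variance. The 2 regulators that rose became 0 to 2 with 1 array left out. The median change of the 38 other genes ran from 0.0024 to 0.0506 with 1 array left out, that of the immunoproteasome genes from 0.32 to 0.40, and their difference, 0.33 in the whole set, was 0.29 to 0.37, and 0.41 when the probe sets of each gene were averaged. Psmb10 passed in 10 of 16 alternatives and Psmb9 in 8, both higher in all 16. The differences within the 3 subunit pairs kept their direction in these alternatives.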

Other observations

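Peptides that leave the proteasome are shortened or destroyed by cytosolic peptidases, a list added after the proteasome values were seen. Of 6 measured genes 1 fell and 0 rose, where 1.59% of all genes fell. Thop1, which encodes thimet oligopeptidase, a protease known to destroy peptides that could otherwise reach MHC class I, averaged 3.15 ± 0.03 with the mimic and 3.91 ± 0.24 in control (SD, n = 3 each), with a log2 change of -0.76 ± 0.13 (limma adjusted p = 0.028). Without mimic array 1, mimic array 3 or control array 2, where 0 genes of the whole table passed, Thop1 did not pass either. Lap3, the interferon-inducible leucine aminopeptidase gene, had a change of 0.09 ± 0.09 (adjusted p = 0.702) and Blmh, of bleomycin hydrolase, one of 0.25 ± 0.10 (adjusted p = 0.279). Tpp2, Npepps and Ide did not pass, with changes of -0.05 ± 0.10, -0.09 ± 0.10 and 0.10 ± 0.14.

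Among the 42 proteasome genes the spread over replicates was smaller in mimic than in control arrays for 29, with a median SD of 0.08 with the mimic and 0.10 in control. Over all 18193 genes it was smaller in mimic arrays for 10125, with medians of 0.13 and 0.14.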
